A study of Mus musculus with 8 samples.

Results

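The chemokines and the tumour necrosis factor (TNF) superfamily, together with the receptors of both, are described here in brown adipose tissue that lacked the histone demethylase Lsd1. The members were the genes whose symbols begin with Ccl, Cxcl, Ccr or Cxcr followed by a digit, or with Cx3c, Tnfsf or Tnfrsf, together with Tnf itself. The symbol pattern found 89 of the 23372 genes with a symbol. The pattern itself uses no measured value, although it was chosen with earlier results of these data known. They were 24 CC ligands, 14 CXC or CX3C ligands, 18 chemokine receptors, 13 TNF superfamily ligands and 20 TNF superfamily receptors. Where a gene had several rows, the row with the highest total over the 8 libraries was kept, which applied to 14 members.

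Total RNA of brown adipose tissue, the heat-producing fat, was sequenced from 4 knockout and 4 control mice of the C57BL/6 N background at 10 weeks of age. The knockout mice came from a cross of mice with floxed Lsd1 alleles to mice with Cre recombinase under the Ucp1 promoter, a brown adipocyte promoter. The control mice carried the floxed Lsd1 alleles and are described without Cre, so that loss of Lsd1 and presence of Cre cannot be told apart. The knockout libraries were replicates 512, 513, 515 and 516 and the control libraries were replicates 511, 514, 517 and 518, and values of single libraries are given in these orders.

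Chemokines are small secreted proteins that steer the movement of leukocytes, and they signal through receptors coupled to G proteins. CC chemokines mainly attract monocytes, eosinophils and lymphocytes, and CXC chemokines mainly neutrophils and lymphocytes. Ligands of the TNF superfamily are trimeric, often membrane-bound proteins, and their receptors recruit TRAF adaptors or death-domain proteins and so activate NF-kappaB, stress kinases or cell death. In adipose tissue these families are known above all from the recruitment of macrophages and from the action of TNF on adipocyte metabolism.

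Each library held 33011022 to 38756920 counts over all rows of the deposited table. Levels are given as CPM, which are counts relative to library size after correction by normalization factors, and levels of different genes are compared only as RPKM, the same value per kilobase of exon. Kdm1a, the gene of Lsd1, had 14.0, 12.2, 13.2 and 13.0 CPM in knockout libraries, against 35.3, 36.0, 33.3 and 36.9 CPM in control libraries, as the labels state. Differences are log2 fold changes of knockout over control, and their standard error (SE) is approximate. A gene was called at an adjusted p under 0.05 in edgeR's quasi-likelihood test over 14178 genes. The labels do not say whether litters were shared, so p-values refer only to the spread among these 8 libraries. Brown adipocyte markers were detected in every library, and their summed level was 12630 to 14270 CPM in knockout libraries and 18730 to 24840 CPM in control libraries. In bulk tissue, fewer cells of a type and less RNA per cell cannot be told apart.

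The chemokine and TNF genes that were called were nearly all higher in knockout tissue. Of the 89 members, 48 passed the filter on low counts and were tested. There were 12 members called higher and 1 called lower, which are 25.0% and 2.08% of the tested members. However, 6 of the 12 lay above the filter cutoff in all knockout but not in all control libraries. Among all genes tested, 15.4% were called higher, 18.9% lower and 34.4% in either direction, against 27.1% of the members in either direction. The log2 fold change was positive for 39 of the 48 members, which is 81.25%, and for 48.7% of all genes tested. The median log2 fold change was 0.32 over the tested members and -0.01 over all genes tested. No library of one group overlapped the other in 11 members with knockout higher and 2 with knockout lower, 22.9% and 4.17% of the tested members, against 15.7% and 19.7% of all genes tested. The direction of all genes depended on scaling: 2189 were called higher and 2682 lower, against 2915 and 1625 with upper quartile factors and 4077 and 930 with library sizes alone, where the median of all genes was 0.10 and 0.20 (log2) higher. With both of those scalings the members called were all higher, 14 and 20 in number.

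Some members passed the filter more by their knockout than by their control libraries. Of the 48 tested members, 37 lay above its cutoff in all 8 libraries, 9 lay above it in all knockout libraries but not in all control libraries, and 0 showed the reverse. Those 9 were Ccl2, Ccl7, Ccl8, Ccl12, Cxcl1, Tnf, Tnfrsf19, Ccr1 and Cxcr5. Ccl7, Tnfrsf19, Ccr1 and Cxcr5 lay above the cutoff in 3 control libraries, and Cxcl1 lay under it in every control library. Of the 9, 6 were called higher (Ccl2, Ccl7, Ccl12, Cxcl1, Tnf and Tnfrsf19). Of the 37 members above the cutoff in all 8 libraries, 6 were called higher and 1 lower. These 6 are 16.2% of the 37, close to the 15.4% of all genes tested, and 30 of the 37 had a positive log2 fold change, with a median of 0.27. The shares, the positive count and the median given above over all 48 therefore describe members that the filter helped to choose. The same holds for the counts and medians by role below. In the authors' deposited table, which lists all 89 members, 14 members were higher at an FDR under 0.05 and 0 lower, 15.7% of the members. The authors' deposited table gave 8.76% of all genes as higher and 7.98% as lower by the same rule.

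**Figure D1:**
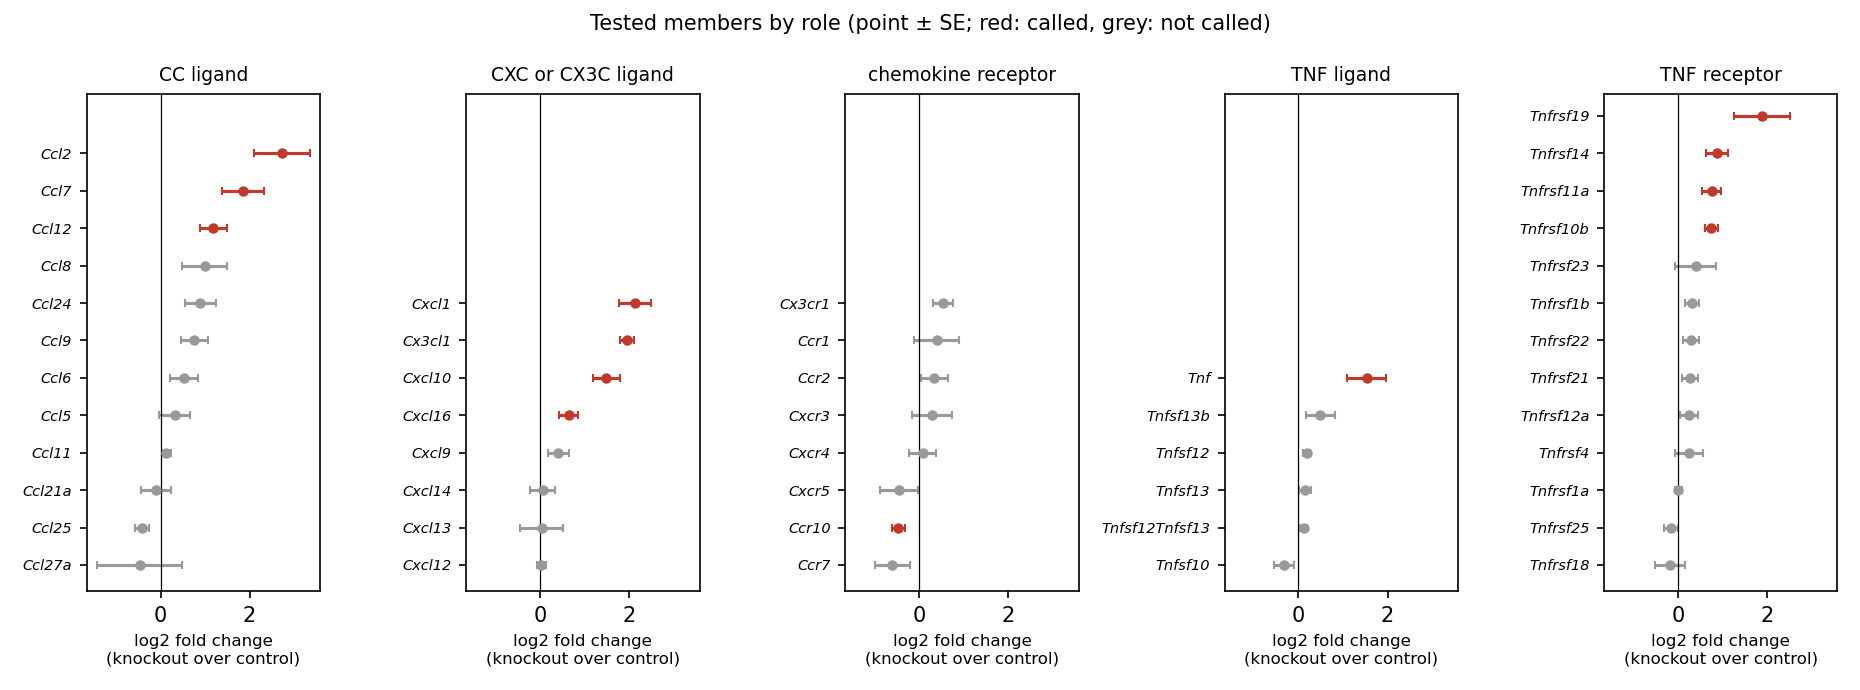
Log2 fold change, knockout over control, of 47 of the 48 tested members in 5 panels by role; points are edgeR estimates, bars are ± SE, red marks called members and grey the rest. The called members lie right of 0 except Ccr10 at -0.47, and the largest value is that of Ccl2 at 2.73.

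Promoters of called members are shown because 5 of them carry a kappaB-like pattern of letters, named after NF-kappaB, a transcription factor downstream of TNF receptors. The sequences are the 250 bases before the RefSeq transcription start (build GRCm38.p6), written in the direction of transcription. Capitals mark matches, on either strand, to GGNNNTTCC, a kappaB-like motif, or to AAANNGAAA, an interferon-response-like motif.
Cx3cl1, chr8:94771930-94772179, + strand: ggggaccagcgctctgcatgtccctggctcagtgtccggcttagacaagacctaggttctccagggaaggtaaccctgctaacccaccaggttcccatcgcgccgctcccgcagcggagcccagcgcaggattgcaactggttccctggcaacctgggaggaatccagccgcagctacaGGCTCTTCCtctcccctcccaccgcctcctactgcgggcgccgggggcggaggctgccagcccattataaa
Cxcl1, chr5:90890995-90891244, + strand: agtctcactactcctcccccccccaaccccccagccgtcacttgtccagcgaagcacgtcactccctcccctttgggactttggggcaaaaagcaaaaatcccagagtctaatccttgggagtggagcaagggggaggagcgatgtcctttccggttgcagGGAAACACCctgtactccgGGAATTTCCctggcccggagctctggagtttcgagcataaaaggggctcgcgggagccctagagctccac
Cxcl10, chr5:92348890-92349139, - strand: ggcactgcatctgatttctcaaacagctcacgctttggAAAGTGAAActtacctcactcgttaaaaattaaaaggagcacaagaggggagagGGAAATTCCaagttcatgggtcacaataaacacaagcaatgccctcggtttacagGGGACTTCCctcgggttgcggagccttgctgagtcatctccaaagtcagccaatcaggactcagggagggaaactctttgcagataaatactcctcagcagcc
Ccl12, chr11:82101595-82101844, + strand: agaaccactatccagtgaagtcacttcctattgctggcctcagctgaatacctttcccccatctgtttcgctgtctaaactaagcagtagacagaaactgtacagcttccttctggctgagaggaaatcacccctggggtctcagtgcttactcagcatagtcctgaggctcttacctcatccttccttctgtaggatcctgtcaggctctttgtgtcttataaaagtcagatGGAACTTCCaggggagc
Tnf, chr17:35202008-35202257, - strand: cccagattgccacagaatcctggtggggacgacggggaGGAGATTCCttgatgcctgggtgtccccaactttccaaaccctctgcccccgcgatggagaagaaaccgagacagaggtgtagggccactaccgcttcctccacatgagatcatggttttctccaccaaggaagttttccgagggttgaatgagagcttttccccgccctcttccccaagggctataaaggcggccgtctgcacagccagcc
In Cxcl10 the first capitals are the interferon-response-like match and the other 2 runs are kappaB-like matches, without overlap. The Tnf start in RefSeq lies 11 bases from the start in the deposited table, and the other 4 starts are the same.

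A kappaB-like match stood in the promoters of 5 of the 8 members called higher that had an entry. It stood in 4 of the 26 tested members that were not called. Over all genes it stood in 15.6% of 27025 promoters of the same length. Of the called members with a match, Ccl12, Cxcl1 and Tnf lay above the filter cutoff in all knockout but not in all control libraries. So did Tnfrsf19, which had no match. The 5 of 8 therefore describes members that the filter helped to choose. The interferon-response-like motif stood in 2 of the 8, Cxcl10 and Tnfrsf14, in 6 of the 26 and in 9.52% of all promoters. Ccl2, Ccl7, Cxcl16, Tnfrsf10b and Ccr10 had no entry. A match is a description of letters and no evidence of binding.

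Among the CC ligands, 3 of the 12 tested were called, all higher, and they were the neighbouring genes Ccl2, Ccl7 and Ccl12, whose products attract monocytes through the receptor Ccr2. The median log2 fold change of the 12 was 0.64. Of the 12, Ccl2, Ccl7, Ccl12 and Ccl8 lay above the filter cutoff in all knockout but not in all control libraries. All 3 called ligands are among these, so the filter helped to set both the count and the median. Ccl2 had 1.28, 3.84, 6.47 and 2.77 CPM in knockout libraries, against 1.247, 0.200, 0.352 and 0.339 CPM in control libraries. Every knockout library was above every control library, although knockout replicate 512 exceeded control replicate 511 only slightly. The log2 fold change of Ccl2 was 2.73 (SE 0.62, adjusted p 0.00983 by edgeR), a 6.63-fold difference. Without control 511, the highest control, it was 3.57 (adjusted p 0.00395 by edgeR). Without controls 514 and 517 together the call of Ccl2 was lost, at a log2 fold change of 2.17 and an adjusted p of 0.067 by edgeR.

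Ccl7 had 0.521, 2.11, 3.04 and 1.57 CPM in knockout libraries, against 0.585, 0.399, 0.528 and 0.490 CPM in control libraries. Knockout replicate 512 lay within the control range, and the other 3 knockout libraries lay above it. The log2 fold change of Ccl7 was 1.85 (SE 0.47, adjusted p 0.0159 by edgeR), and without controls 514 and 517 together its adjusted p was 0.0886. Ccl12, a mouse chemokine close in function to Ccl2, had 0.762, 0.715, 1.07 and 1.12 CPM in knockout libraries, against 0.468, 0.559, 0.264 and 0.302 CPM in control libraries. The groups did not overlap, and the log2 fold change of Ccl12 was 1.19 (SE 0.30, adjusted p 0.0152 by edgeR). Its call held in each of the 15 alternatives in which it was tested.

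The CC ligands with the highest levels per exon length did not pass the test. Ccl11, eotaxin, which attracts eosinophils, was the highest, with 17.5 ± 1.73 RPKM in knockout libraries and 16.0 ± 1.61 RPKM in control libraries (SD, n = 4 each). Its library values were 17.9, 17.8, 21.4 and 17.4 CPM in knockout libraries, against 18.6, 17.0, 14.7 and 17.9 CPM in control libraries, and its log2 fold change was 0.13 (SE 0.11, adjusted p 0.374 by edgeR). It lies between Ccl7 and Ccl12 on the chromosome, and the groups overlapped.

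Ccl6, a mouse chemokine made by macrophages, had 8.06, 10.1, 13.0 and 15.9 CPM in knockout libraries, against 10.4, 4.23, 6.96 and 11.1 CPM in control libraries. The groups overlapped, and the log2 fold change was 0.53 (SE 0.31, adjusted p 0.213 by edgeR). Ccl21a, a ligand of Ccr7 that guides T cells and dendritic cells, had 5.53, 2.48, 3.47 and 3.14 CPM in knockout libraries, against 2.61, 3.91, 6.34 and 2.90 CPM in control libraries. The ranges of the groups nearly coincided, with a log2 fold change of -0.11 (SE 0.33, adjusted p 0.8294 by edgeR). Near-identical copies of Ccl21a and of Ccl27a exist in the mouse genome, so their counts are uncertain. Per exon length, the mean of Ccl6 was 8.25 RPKM in knockout and 5.72 RPKM in control libraries, and that of Ccl21a 4.26 and 4.59 RPKM. The log2 fold changes of the 9 uncalled CC ligands ran between -0.47 for Ccl27a and 0.997 for Ccl8, a further monocyte attractant. A single library set the direction of Ccl27a, whose log2 fold change was 1.63 (adjusted p 0.0891) without control 511, and Ccl8 was called without control 517, at 1.54 (adjusted p 0.0446), both by edgeR. Ccl24, another eotaxin, had a log2 fold change of 0.90 (adjusted p 0.0699 by edgeR), and Ccl9 of 0.76 (adjusted p 0.0777). DESeq2 called both higher, at adjusted p-values of 0.0421 and 0.0356. Ccl24 was also called in the edgeR fits with upper quartile factors (adjusted p 0.0492), with library sizes alone (0.0292) and without control 511 (0.00695, log2 fold change 1.33), and Ccl9 with library sizes alone (0.0329). Ccl25, a ligand of Ccr9, was lower in all 4 knockout libraries than in any control library, at a log2 fold change of -0.42 (adjusted p 0.0682 by edgeR). The row kept for Ccl25 is a non-coding RefSeq transcript of the gene. With the sum of all its rows Ccl25 was called lower, at -0.45 (adjusted p 0.0286 by edgeR).

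**Figure D2:**
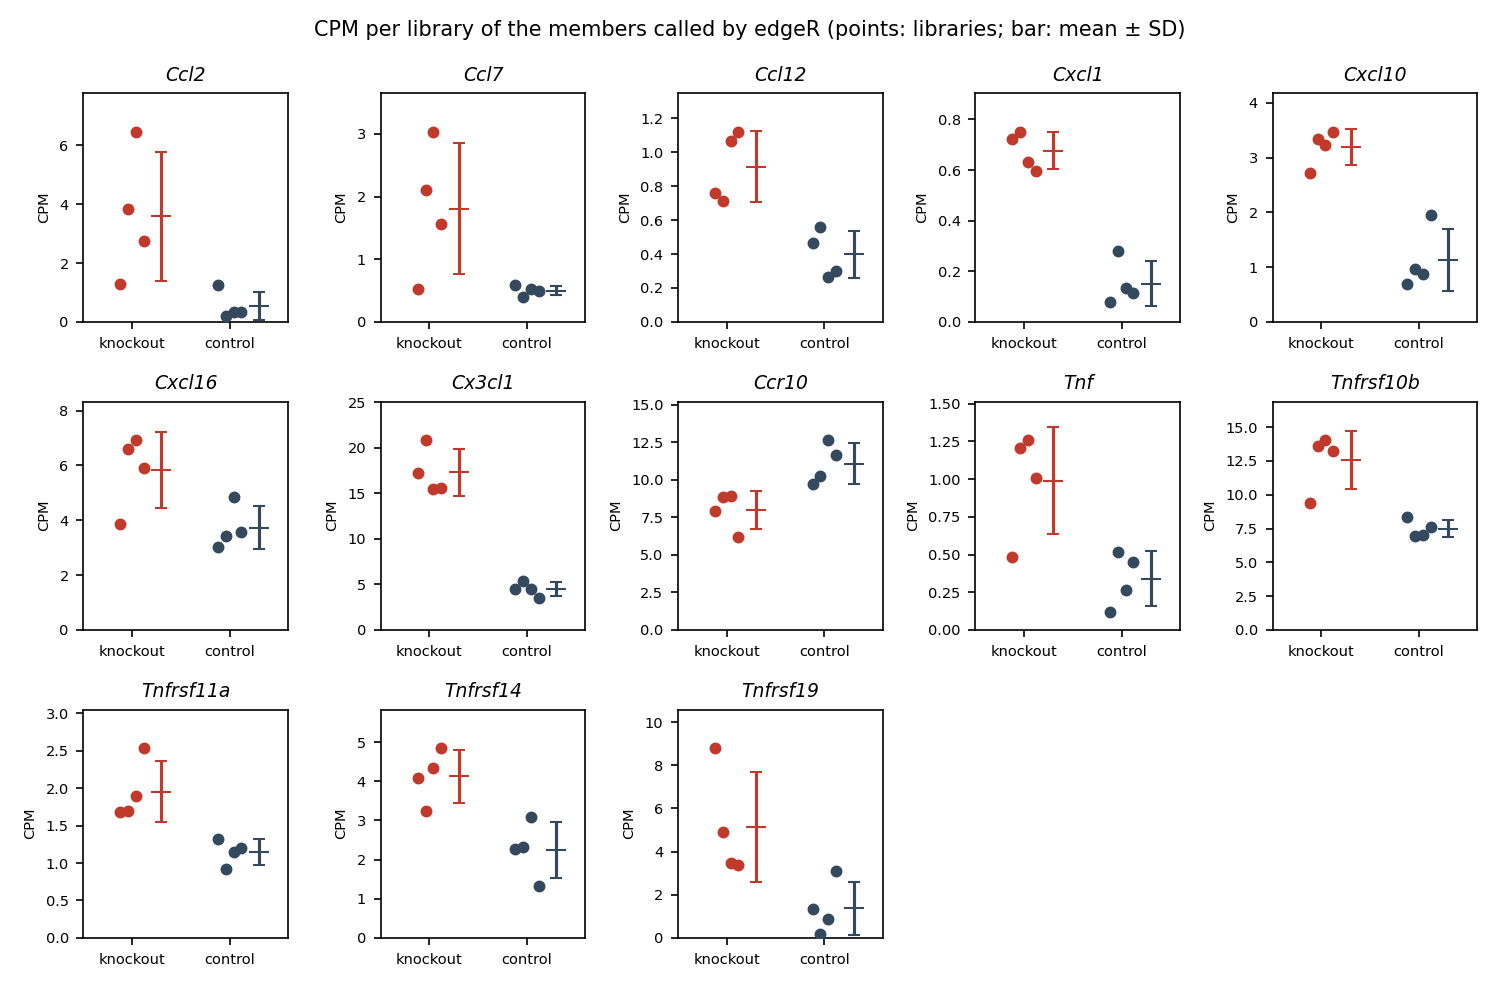
CPM per library of the 13 called members, with knockout libraries left of control libraries in each panel; points are libraries and the bar is the mean ± SD (n = 4 each), with each axis starting at 0. Cx3cl1 lies between 15.5 and 20.9 CPM in knockout and between 3.54 and 5.43 CPM in control libraries, and Ccr10 is the panel in which knockout libraries are lower.

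Among the CXC and CX3C ligands, 4 of the 8 tested were called, all higher, with a median log2 fold change of 0.53 over the 8. Cx3cl1, fractalkine, is anchored in the membrane of the cell that makes it, where it holds leukocytes that carry Cx3cr1, and is released by ADAM proteases. Cx3cl1 had 17.3, 20.9, 15.5 and 15.6 CPM in knockout libraries, against 4.48, 5.43, 4.49 and 3.54 CPM in control libraries. The groups were far apart relative to their spread, with means of 17.3 ± 2.55 CPM in knockout and 4.49 ± 0.77 CPM in control libraries (SD, n = 4 each). Its log2 fold change was 1.95 (SE 0.16, adjusted p 0.000137 by edgeR), the smallest adjusted p among the members. It lay between 1.84 and 2.15 in all 16 alternatives. Per exon length, Cx3cl1 reached 5.52 RPKM in knockout libraries, against 1.43 RPKM in control libraries.

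Cxcl1, a neutrophil attractant that acts through Cxcr2, had 0.722, 0.752, 0.631 and 0.598 CPM in knockout libraries, against 0.0780, 0.279, 0.132 and 0.113 CPM in control libraries. The control values rest on 14.5 counts over 4 libraries and the knockout values on 68.0, and the groups did not overlap. The log2 fold change of Cxcl1 was 2.13 (SE 0.35, adjusted p 0.00233 by edgeR). Cxcl10, a ligand of Cxcr3 that interferons induce, had 2.73, 3.35, 3.24 and 3.48 CPM in knockout libraries, against 0.702, 0.958, 0.881 and 1.96 CPM in control libraries. Control replicate 518 was the highest control and still lay under every knockout library, and the log2 fold change was 1.496 (SE 0.30, adjusted p 0.00563 by edgeR).

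Cxcl16, a transmembrane chemokine that binds Cxcr6, had 3.85, 6.58, 6.94 and 5.91 CPM in knockout libraries, against 3.04, 3.43, 4.84 and 3.58 CPM in control libraries. Knockout replicate 512 lay under control replicate 517, so the groups overlapped. This gave Cxcl16 a log2 fold change of 0.65 (SE 0.22, adjusted p 0.0465 by edgeR). The call of Cxcl16 was lost without knockout 513, 515 or 516 and without control 511, 514 or 518, at adjusted p-values of 0.116, 0.122, 0.0948, 0.101, 0.0914 and 0.0769 by edgeR, and without the filter on low counts, at 0.0525. Zmynd15 covers 18.27% of its exon bases on the opposite strand, and since strand was not counted its reads cannot be told apart there.

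The most abundant CXC ligands did not pass the test. Cxcl12, which retains haematopoietic cells through Cxcr4, had 93.0, 96.6, 103 and 92.3 CPM in knockout libraries, against 88.9, 94.5, 113 and 80.7 CPM in control libraries. The knockout values lay inside the control range, with a log2 fold change of 0.03 (SE 0.10, adjusted p 0.838 by edgeR). Cxcl14, made by brown adipocytes and fibroblasts and known to attract macrophages, had 24.0, 20.4, 48.8 and 25.9 CPM in knockout libraries, against 21.7, 24.5, 39.4 and 28.4 CPM in control libraries. A single library of each group, knockout 515 and control 517, was above the rest. Its log2 fold change was 0.06 (SE 0.28, adjusted p 0.883 by edgeR). Cxcl9, like Cxcl10 an interferon-induced ligand of Cxcr3, had 11.1, 20.4, 17.4 and 22.9 CPM in knockout libraries, against 10.99, 10.4, 15.9 and 16.5 CPM in control libraries. Its log2 fold change was 0.42 (SE 0.24, adjusted p 0.197 by edgeR). Per exon length Cxcl12, Cxcl14 and Cxcl9 averaged 17.0, 16.4 and 6.19 RPKM in knockout libraries, and 16.7, 15.7 and 4.64 RPKM in control libraries.

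Neighbouring members did not all move together. Cx3cl1 lies on chromosome 8 (mm10, 94772180 to 94782426) between Ccl22 and Ccl17, both ligands of Ccr4 and both under the filter. Ccl22 had 7, 37.5, 21 and 34.5 counts in knockout libraries, against 3, 5.5, 6.5 and 4 counts in control libraries, so that every knockout library was above every control library. Ccl17 had 3, 9.5, 8 and 8.5 counts in knockout libraries, against 1, 0, 0 and 0.5 counts in control libraries, again without overlap. Without the filter both were called higher by edgeR, and the authors' deposited table gives Ccl22 a log2 fold change of 2.22 (FDR 0.000372) and Ccl17 an FDR of 0.000155. The control counts of Ccl17 sum to only 1.5, and no fold change is given for it.

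On chromosome 11, the 6 genes between 82035577 and 82179812 were Ccl2, Ccl7, Ccl11, Ccl12, Ccl8 and Ccl1. Ccl2, Ccl7 and Ccl12 were called and Ccl11 and Ccl8 were not, and Ccl1 had 1.0 count in knockout and 0 in control libraries. The 5 members between 83525779 and 83664683 on the same chromosome, Ccl5, Ccl9, Ccl6, Ccl3 and Ccl4, included none that edgeR called, whereas DESeq2 called Ccl9 higher. On chromosome 5, Cxcl1 was called between 90759299 and 90905938, where Cxcl2, with the same receptor, summed to 19.0 counts in knockout and 5.0 counts in control libraries. Also on chromosome 5, Cxcl10 was called between Cxcl9, which was not, and Cxcl11, which was under the filter. Cxcl11 had 39.0 counts in knockout and 27.5 counts in control libraries, in a kept row that is a non-coding RefSeq transcript of the gene. Gm2673 covers 41.7% of the exon bases of Cxcl11 on the opposite strand, and its reads cannot be told apart there.

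**Figure D3:**
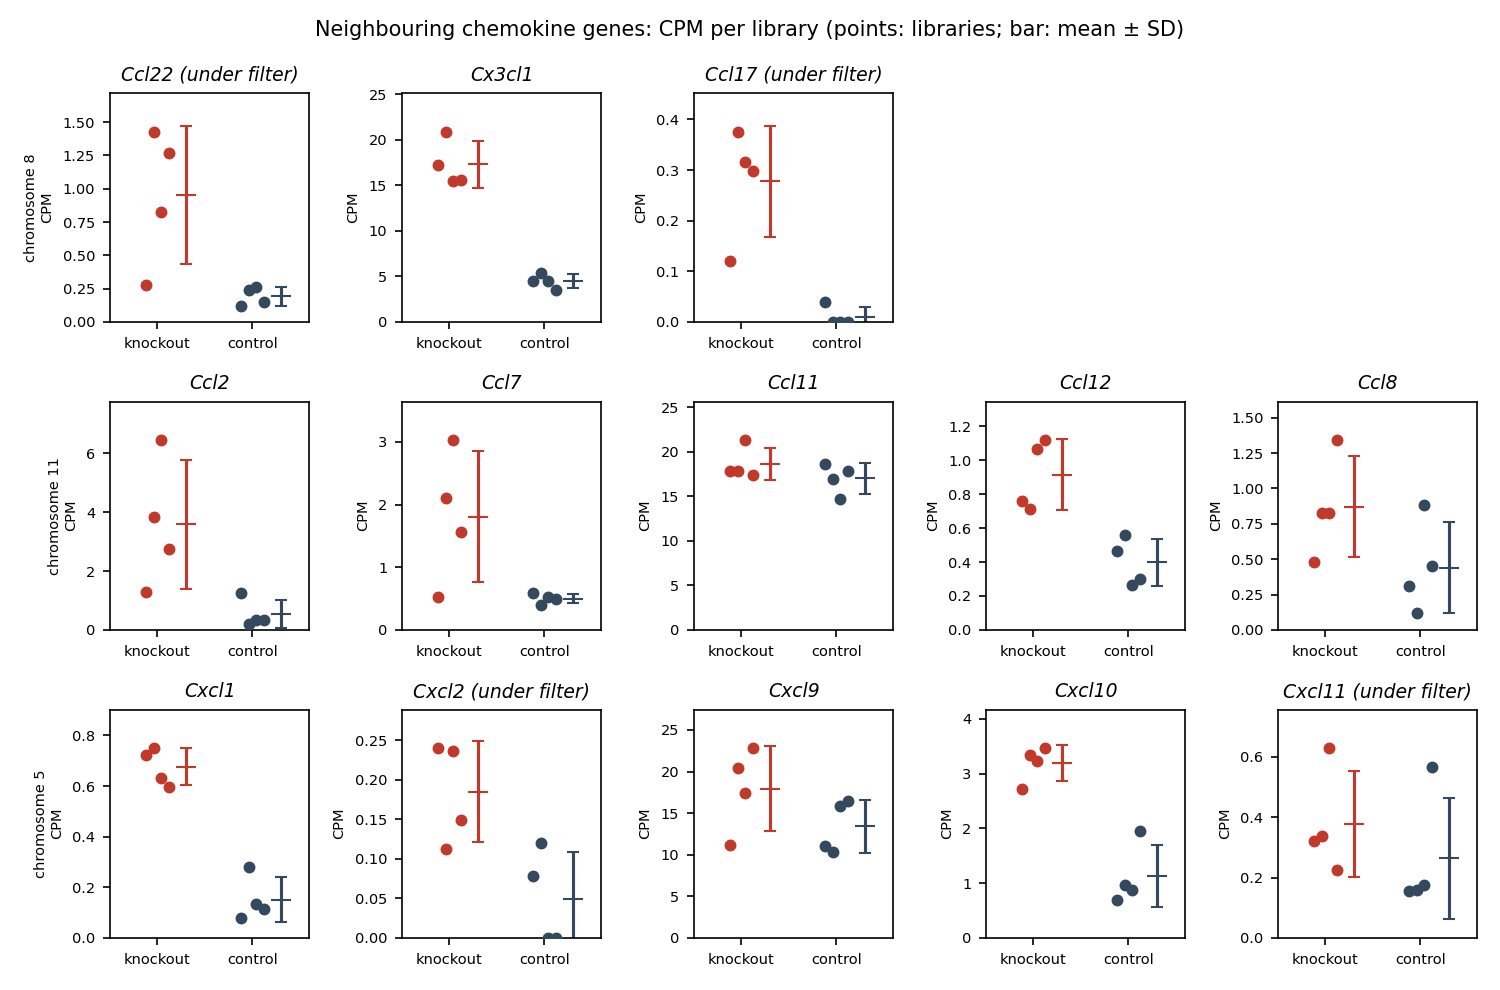
CPM per library of 13 neighbouring ligand genes, in chromosome order within each row, with knockout libraries left of control libraries; points are libraries, the bar is the mean ± SD (n = 4 each), and "under filter" marks genes that were not tested. On chromosome 8 all 3 genes have knockout libraries above control libraries, whereas Ccl11 overlaps between the groups although Ccl2, Ccl7 and Ccl12 beside it were called.

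Of the 9 chemokine receptors tested, edgeR called 0 higher and 1, Ccr10, lower, and DESeq2 the same numbers. At an unadjusted p under 0.05 in edgeR, 2 receptors were higher and 1 lower, and that share was not counted over all genes. Ccr10 binds Ccl27 and Ccl28 and is known from skin-homing T cells and plasma cells. Ccr10 had 7.94, 8.84, 8.92 and 6.21 CPM in knockout libraries, against 9.75, 10.2, 12.68 and 11.7 CPM in control libraries. The groups did not overlap, and the log2 fold change was -0.47 (SE 0.15, adjusted p 0.0328 by edgeR). The call was lost with upper quartile factors (adjusted p 0.0791) and library sizes alone (0.189), and in edgeR fits without knockout 512 (0.0658) or 516 (0.0716) or control 517 (0.0771) or 518 (0.0754). Ccr10 had the highest level per exon length of the receptors, 4.64 ± 0.73 RPKM in knockout and 6.44 ± 0.78 RPKM in control libraries (SD, n = 4 each).

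Cxcr4, the receptor of Cxcl12, had 9.06, 4.74, 5.21 and 6.28 CPM in knockout libraries, against 4.17, 7.42, 3.79 and 8.44 CPM in control libraries. The groups overlapped widely, with a log2 fold change of 0.08 (SE 0.30, adjusted p 0.854 by edgeR). Ccr2, the monocyte receptor of Ccl2, Ccl7 and Ccl12, had 7.34, 7.97, 8.76 and 10.8 CPM in knockout libraries, against 4.44, 4.55, 11.8 and 6.79 CPM in control libraries. Control replicate 517 was above every knockout library, and the log2 fold change was 0.34 (SE 0.30, adjusted p 0.405 by edgeR). In the edgeR fit without control 517, Ccr2 was called higher (log2 fold change 0.72, adjusted p 0.0313). Cx3cr1, the receptor of Cx3cl1, averaged 4.24 ± 1.04 CPM in knockout and 2.93 ± 0.62 CPM in control libraries (SD, n = 4 each), with a log2 fold change of 0.54 (SE 0.22, adjusted p 0.0919 by edgeR), and it was called without knockout 512 (0.67, adjusted p 0.0457). Ccr7, the receptor of Ccl21a, had a log2 fold change of -0.60 (adjusted p 0.267 by edgeR), which was 0.16 without controls 514 and 517 together.

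Receptors of the called CXC ligands were scarce. Cxcr3, which binds Cxcl9 and Cxcl10, averaged 0.440 ± 0.179 CPM in knockout and 0.365 ± 0.186 CPM in control libraries (SD, n = 4 each), with a log2 fold change of 0.28 (adjusted p 0.654 by edgeR). Cxcr2, the receptor of Cxcl1, was under the filter with 7, 4, 3 and 5.5 counts in knockout libraries, against 6.5, 9, 9 and 12 counts in control libraries. Cxcr6, which binds Cxcl16, was under the filter with 3, 4, 6.5 and 11 counts in knockout libraries, against 1, 6, 12 and 8 counts in control libraries. For both, the counts of the groups overlapped. Ccr4, which binds Ccl17 and Ccl22, summed to 4.0 counts in knockout and 5.0 counts in control libraries.

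**Figure D4:**
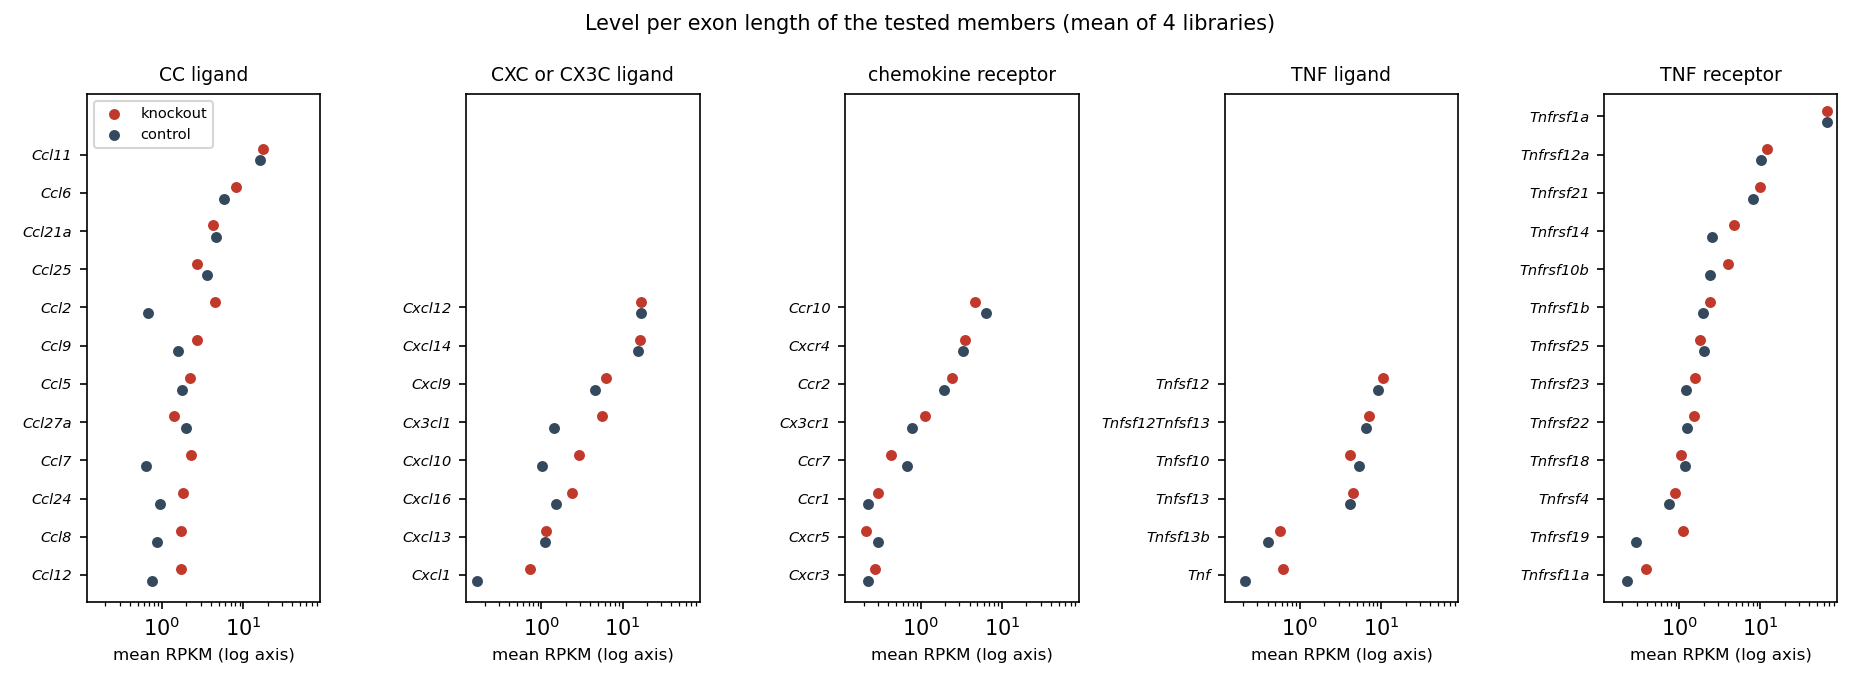
Mean RPKM of 47 of the 48 tested members by role on a logarithmic axis; red points are the mean of 4 knockout libraries and blue points, just below them, that of 4 control libraries. Tnfrsf1a is the highest member, at 65.6 RPKM in knockout and 65.1 RPKM in control libraries, and Ccl2 shows the widest gap between the groups.

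Among the TNF superfamily ligands, Tnf was called higher and the other 5 tested were not, with a median log2 fold change of 0.16 over the 6. Tnf, the founding cytokine of the family, had 0.481, 1.203, 1.26 and 1.01 CPM in knockout libraries, against 0.117, 0.519, 0.264 and 0.452 CPM in control libraries. Knockout replicate 512 lay under control replicate 514, and the other 3 knockout libraries lay above every control library. Tnf had a log2 fold change of 1.53 (SE 0.44, adjusted p 0.0260 by edgeR), and without knockout 513, 515 or 516 or control 517 the adjusted p was 0.0699, 0.0691, 0.0588 and 0.0612.

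Tnfsf12, TWEAK, the ligand of Tnfrsf12a, had 16.5, 16.9, 18.1 and 19.0 CPM in knockout libraries, against 15.9, 15.7, 15.3 and 15.1 CPM in control libraries. The groups did not overlap, but the difference was small, with a log2 fold change of 0.19 (SE 0.08, adjusted p 0.101 by edgeR), and upper quartile factors (adjusted p 0.0274) and library sizes alone (0.00710) gave a call. Tnfsf12Tnfsf13, a read-through transcript, had 15.5, 15.2, 15.2 and 16.1 CPM in knockout libraries, against 13.2, 14.8, 13.9 and 15.3 CPM in control libraries. It covers 48.25% of the exon bases of Tnfsf12 and 60.05% of those of Tnfsf13 on the same strand, so reads of the 3 are not separate. For the read-through the log2 fold change was 0.12 (SE 0.08, adjusted p 0.296 by edgeR). Tnfsf10, TRAIL, which triggers apoptosis through Tnfrsf10b, had 18.9, 21.2, 22.9 and 19.7 CPM in knockout libraries, against 14.6, 24.9, 34.4 and 30.3 CPM in control libraries. The knockout libraries lay inside the wider control range, with a log2 fold change of -0.33 (SE 0.22, adjusted p 0.274 by edgeR). Without control 511 Tnfsf10 was called lower, at -0.53 (adjusted p 0.0133 by edgeR). Per exon length, Tnfsf12 averaged 10.5 RPKM in knockout and 9.23 RPKM in control libraries, and Tnf 0.615 and 0.210 RPKM.

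Among the TNF superfamily receptors, 4 of the 13 tested were called, all higher, with a median log2 fold change of 0.30 over the 13. Tnfrsf10b, the death receptor of TRAIL in mice, had 9.38, 13.6, 14.1 and 13.3 CPM in knockout libraries, against 8.34, 6.94, 7.05 and 7.61 CPM in control libraries. Every knockout library was above every control library, with a log2 fold change of 0.75 (SE 0.14, adjusted p 0.00470 by edgeR). The call of Tnfrsf10b held in all 16 alternatives, at log2 fold changes of 0.65 to 0.95.

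Tnfrsf14, the herpesvirus entry mediator, which binds Tnfsf14 and the inhibitory receptor Btla, had 4.09, 3.23, 4.34 and 4.86 CPM in knockout libraries, against 2.26, 2.32, 3.08 and 1.32 CPM in control libraries. The groups did not overlap, and the log2 fold change was 0.88 (SE 0.25, adjusted p 0.0243 by edgeR). The adjusted p of Tnfrsf14 was 0.0600 without knockout 515 and 0.0686 without knockout 516. Tnfrsf11a, RANK, the receptor of Tnfsf11 in osteoclast formation, had 1.68, 1.69, 1.89 and 2.54 CPM in knockout libraries, against 1.33, 0.918, 1.15 and 1.21 CPM in control libraries. The groups did not overlap here either, with a log2 fold change of 0.76 (SE 0.21, adjusted p 0.0218 by edgeR). The adjusted p was 0.0625 without knockout 516, 0.0517 without control 514 and 0.120 without controls 514 and 517 together. The ligand Tnfsf11 had 2.0 counts in knockout and 2.0 counts in control libraries, and Tnfsf14 had 12.5 in each.

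Tnfrsf19, TROY, a receptor without a death domain that is known from progenitor cells and the nervous system, varied widely within its groups. It had 8.82, 4.89, 3.47 and 3.40 CPM in knockout libraries, against 1.33, 0.160, 0.881 and 3.09 CPM in control libraries. Every knockout library was above every control library, but control 518 came close to knockout 516. The fit gave a log2 fold change of 1.90 (SE 0.63, adjusted p 0.0441 by edgeR), which was 2.72 without control 518 and 1.21 without controls 514 and 517 together. The call was lost when any single knockout library was left out, at adjusted p-values of 0.115, 0.0828, 0.0620 and 0.0617, and without control 511 (0.0825) or 517 (0.0966). The summed level of the skeletal muscle markers was 12040, 7964, 7152 and 5630 CPM in knockout libraries, against 3374, 206.6, 2886 and 4730 CPM in control libraries. Tnfrsf19 and the muscle markers were both highest in knockout 512, lowest in control 514 and, among controls, highest in control 518, and the part of muscle RNA in the result was not tested.

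The receptor of TNF itself was the most abundant member. Tnfrsf1a, TNF receptor 1, had 126, 139, 152 and 144 CPM in knockout libraries, against 149, 142, 131 and 132 CPM in control libraries. The groups overlapped, with a log2 fold change of 0.01 (SE 0.08, adjusted p 0.920 by edgeR), and it averaged 65.6 ± 5.17 RPKM in knockout and 65.1 ± 4.02 RPKM in control libraries (SD, n = 4 each). Tnfrsf1b, TNF receptor 2, averaged 11.8 ± 1.95 CPM in knockout and 9.49 ± 1.54 CPM in control libraries (SD, n = 4 each), with a log2 fold change of 0.32 (adjusted p 0.142 by edgeR).

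Tnfrsf12a, Fn14, the receptor of TWEAK, had 8.58, 14.1, 12.2 and 11.1 CPM in knockout libraries, against 12.5, 10.6, 6.96 and 8.75 CPM in control libraries, and the groups overlapped. Its log2 fold change was 0.24 (SE 0.20, adjusted p 0.378 by edgeR). Tnfrsf21, death receptor 6, had 40.4, 32.9, 29.7 and 38.0 CPM in knockout libraries, against 22.7, 39.2, 31.2 and 23.8 CPM in control libraries. Controls 514 and 517 lay within the knockout range, and the log2 fold change was 0.27 (SE 0.18, adjusted p 0.265 by edgeR). Without control 514 Tnfrsf21 was called higher, at 0.44 (adjusted p 0.0490 by edgeR). Per exon length Tnfrsf12a averaged 12.01 RPKM in knockout and 10.1 RPKM in control libraries, and Tnfrsf21 9.76 and 8.09 RPKM. The 9 uncalled receptors had log2 fold changes between -0.17 for Tnfrsf18 and 0.41 for Tnfrsf23.

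The 41 members under the filter had at most 37.5 counts in a library. Of these, Ccl21b, Ccl21c, Ccl26 and Tnfsf4 had no count in any library, and 12 members, those 4 included, summed to 5 counts or fewer over the 8 libraries. Not scaled for library size, the summed count was higher in knockout libraries for 21 of the 41. It was higher in control libraries for 13 and equal for 7. The same numbers were not counted over all genes under the filter. No lean of the family is therefore read from these or from the overlaps that follow. By these unscaled counts, every knockout library was above every control library in Ccl22, Ccl17 and Tnfrsf8, and the reverse was the case in 0. In CPM the groups of Tnfrsf8 overlapped, at 0.150 CPM in knockout 513 and 0.156 CPM in control 511. Tnfrsf8, CD30 of activated lymphocytes, had 4, 4.5, 7.5 and 5.5 counts in knockout libraries, against 3.5, 3, 0 and 2.5 counts in control libraries. Tnfsf15, a ligand of Tnfrsf25 made by endothelium and myeloid cells, had 8, 7, 3.5 and 10.5 counts in knockout libraries, against 2.5, 3.5, 0 and 0 counts in control libraries. The authors' deposited table gives Tnfsf15 a log2 fold change of 1.96 (FDR 0.0168), and no test here covers it at the chosen filter. Ccl28, a ligand of Ccr10, summed to 24.0 counts in knockout and 48.5 counts in control libraries.

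The other genes of both pathways moved in both directions. Of 92 tested genes in 6 lists of partners, 12 were called higher and 9 lower, 13.0% and 9.78%, against the 15.4% and 18.9% of all genes tested, with a median log2 fold change of 0.05. With upper quartile factors and library sizes alone 22 and 32 of them were called higher, and the DESeq2 fit called 20 higher. Of all 14178 genes tested, upper quartile factors called 2915 higher, library sizes alone 4077 and DESeq2 2545. Among 9 tested kin of the chemokines outside the symbol pattern, Ackr4, a decoy receptor that removes Ccl19, Ccl21 and Ccl25, was the only one that edgeR called, and DESeq2 called 1 further gene of the list higher. Ackr4 averaged 4.77 ± 0.43 CPM in knockout and 7.90 ± 1.16 CPM in control libraries (SD, n = 4 each), a log2 fold change of -0.73 (adjusted p 0.00467 by edgeR). Among 9 tested kin of the TNF superfamily, 2 receptors were called higher. Eda2r, the receptor of an ectodysplasin isoform, averaged 3.09 ± 0.35 CPM in knockout and 1.19 ± 0.43 CPM in control libraries (SD, n = 4 each), a log2 fold change of 1.36 (adjusted p 0.00369 by edgeR). Relt averaged 2.84 ± 0.35 CPM in knockout and 1.09 ± 0.39 CPM in control libraries (SD, n = 4 each), a log2 fold change of 1.39 (adjusted p 0.00493 by edgeR).

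Of 22 tested adaptors and death-signalling genes, 0 were called higher and 2 lower by edgeR, and 3 higher and 3 lower by DESeq2. At an unadjusted p under 0.05 in edgeR 4 were higher and 4 lower. DESeq2 called 2545 of all genes tested higher and 2841 lower, and the unadjusted share was not counted over all genes. The 2 that edgeR called were Tank, a TRAF-binding adaptor (log2 fold change -0.61, adjusted p 0.000524), and Rbck1, a subunit of the linear ubiquitin ligase (log2 fold change -0.42, adjusted p 0.00134). Of 19 genes of the NF-kappaB pathway, 3 were called higher and 3 lower, against 15.4% and 18.9% of all genes tested. Nfkbie, an inhibitor that NF-kappaB itself induces, averaged 4.51 ± 0.92 CPM in knockout and 2.10 ± 0.29 CPM in control libraries (SD, n = 4 each), a log2 fold change of 1.10 (adjusted p 0.00313 by edgeR). Map3k14, the kinase of the non-canonical arm, had a log2 fold change of 0.48 (adjusted p 0.00751), whereas Map3k7, the kinase TAK1, had -0.42 (adjusted p 0.00123) and Ikbkg, the regulatory subunit NEMO, -0.41 (adjusted p 0.00791) by edgeR.

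Of 21 genes of chemokine receptor signalling, 3 were called higher and 2 lower, against 15.4% and 18.9% of all genes tested. Gng2, a G protein gamma subunit, averaged 17.3 ± 1.09 CPM in knockout and 7.11 ± 1.16 CPM in control libraries (SD, n = 4 each), a log2 fold change of 1.28 (adjusted p 0.000349 by edgeR). Prex1, a Rac exchange factor activated by G protein subunits, had a log2 fold change of 0.79 (adjusted p 0.000558 by edgeR), and Arrb2, an arrestin that desensitises the receptors, one of 0.50 (adjusted p 0.00819). Adrbk2, a kinase of such receptors, averaged 115 ± 18.2 CPM in knockout and 224 ± 44.1 CPM in control libraries (SD, n = 4 each), a log2 fold change of -0.96 (adjusted p 0.00225 by edgeR).

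Of 12 proteases and binding partners of the ligands, 4 were called higher and 1 lower, with a median log2 fold change of 0.42. Among all genes tested 15.4% were higher and 18.9% lower, with a median of -0.01. The list was chosen with earlier results of these data known. Mmp12, a macrophage metalloproteinase that cleaves chemokines, averaged 2.91 ± 1.07 CPM in knockout and 0.600 ± 0.324 CPM in control libraries (SD, n = 4 each), a log2 fold change of 2.27 (adjusted p 0.00646 by edgeR). Sdc1, a heparan sulphate carrier that binds chemokines, had a log2 fold change of 0.69 (adjusted p 0.000840), and Timp3, an inhibitor of ADAM17, one of 0.49 (adjusted p 0.00452) by edgeR. Adam17, the protease that releases TNF from the membrane, was called lower, at a log2 fold change of -0.29 (adjusted p 0.0380 by edgeR). Adam10, which sheds Cx3cl1 and Cxcl16, was not called (log2 fold change 0.15, adjusted p 0.164 by edgeR).

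Markers of the cells that make or answer to these proteins moved with the groups in some lists. Of 11 tested macrophage and monocyte markers, Cd68, Csf1r, C1qa and C1qb were called higher and 0 lower, with a median log2 fold change of 0.60. DESeq2 called 6 higher and 0 lower, as did an unadjusted p under 0.05 in edgeR. Among all 14178 genes tested, edgeR called 15.4% higher, and DESeq2 called 2545 higher and 2841 lower. Shares at an unadjusted p under 0.05 were not counted over all genes, here or for the lists below. The summed level of the macrophage and monocyte markers was 204, 222, 254 and 311 CPM in knockout libraries. In control libraries it was 177, 114, 216 and 181 CPM, and control 517 lay within the knockout range. In the dendritic cell list Itgax alone was called, higher, and the summed level was 18.3 to 22.5 CPM in knockout and 14.5 to 19.1 CPM in control libraries. Of 8 T and NK cell markers and 7 B cell and plasma cell markers 0 were called by edgeR and 0 by DESeq2, and at an unadjusted p under 0.05 in edgeR 1 B cell marker was lower and 0 T cell markers differed. The summed levels of the B cell and plasma cell markers were 5.38 to 9.43 CPM in knockout and 5.19 to 24.3 CPM in control libraries, with control 517 the highest. The summed T and NK cell markers were 5.52 to 8.74 CPM in knockout and 3.82 to 17.9 CPM in control libraries.

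Knockout replicate 512, which had the lowest macrophage marker sum of the knockout libraries, also had the lowest level among them of 7 of the 12 members called higher. It was likewise lowest in 24 of the 48 tested members. Fibroblast and preadipocyte markers summed to 1707 to 2679 CPM in knockout and 930 to 2054 CPM in control libraries, and edgeR called 0 of 9, DESeq2 1 higher and an unadjusted p under 0.05 in edgeR 1 higher. Smooth muscle and pericyte markers summed to 841 to 1160 CPM in knockout and 680 to 872 CPM in control libraries, with Cspg4 called lower. Lymphatic endothelium summed to 26.9 to 32.4 CPM in knockout and 23.2 to 30.1 CPM in control libraries, and erythroid markers to 1051 to 1544 CPM in knockout and 783 to 1207 CPM in control libraries. EdgeR called 0 of 3 lymphatic and 0 of 5 erythroid markers, DESeq2 0 and 1, and an unadjusted p under 0.05 in edgeR 0 and 2. Vascular endothelium summed to 1070 to 1228 CPM in knockout and 1027 to 1217 CPM in control libraries, with Cldn5 called higher. In the neutrophil and mast cell list Kit was called lower, and the sum was 42.9 to 52.1 CPM in knockout and 37.0 to 169.7 CPM in control libraries. Skeletal muscle and brown adipocyte marker sums did not overlap between the groups, with 1 muscle marker, Myh2, called higher and 5 brown adipocyte markers called lower. DESeq2 called 1 muscle marker higher and 6 brown adipocyte markers lower. An unadjusted p under 0.05 in edgeR gave 4 muscle markers higher and 7 brown adipocyte markers lower. The part of cell composition in the chemokine and TNF results was not tested.

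**Figure D5:**
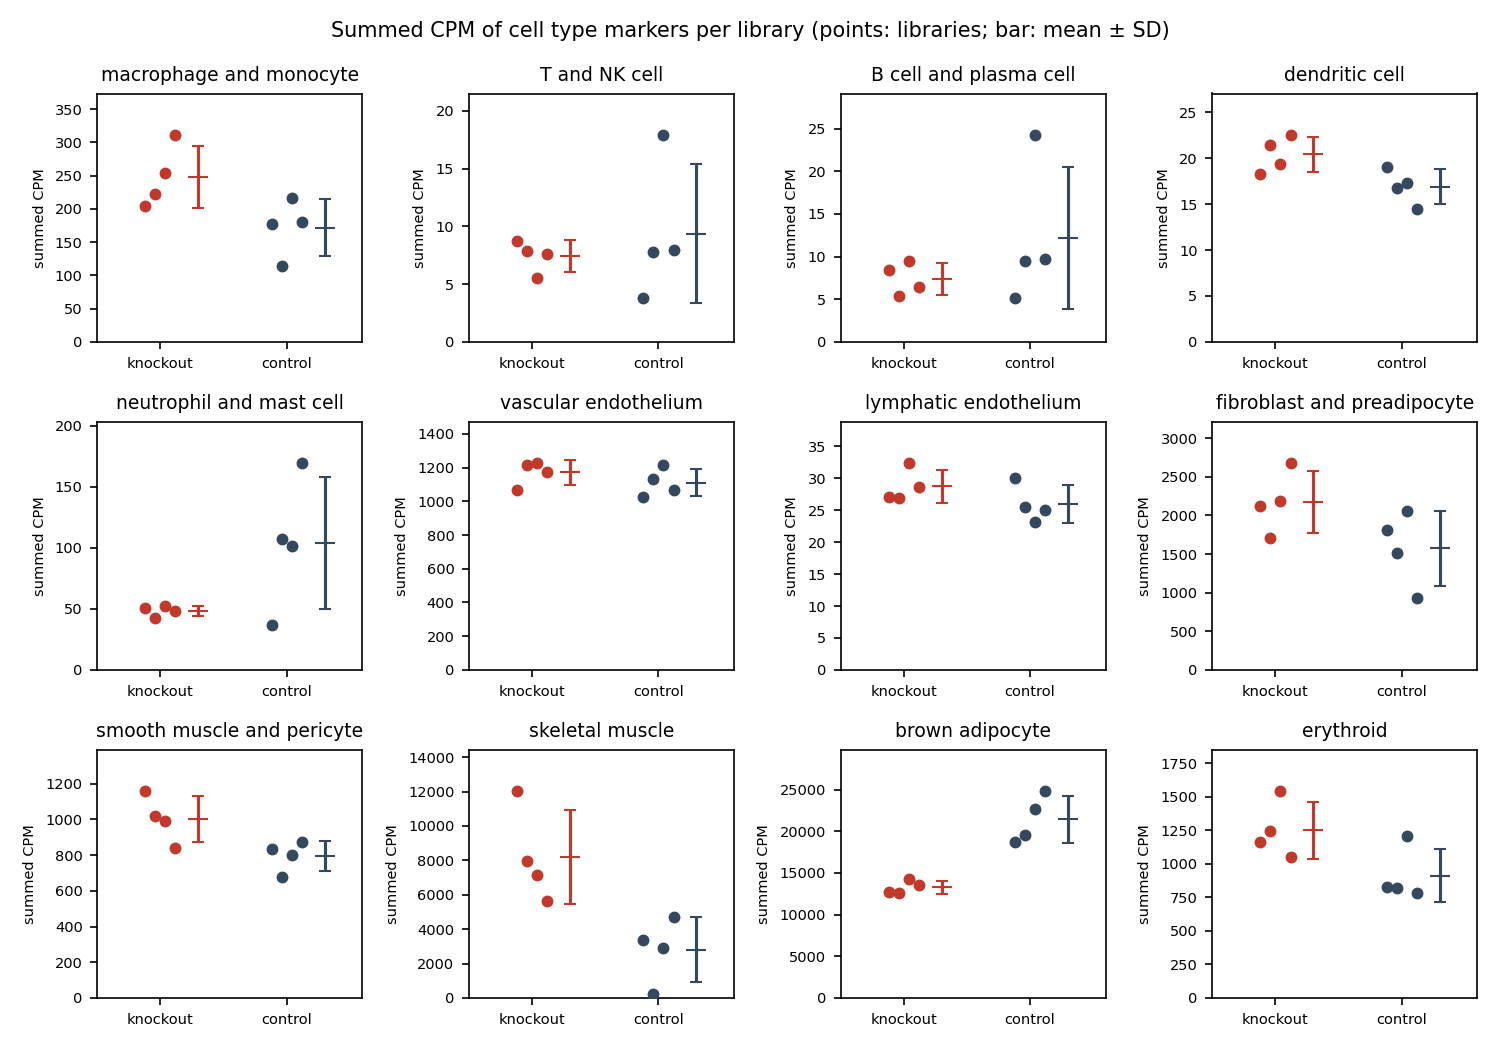
Summed CPM of 12 lists of cell type markers per library, with knockout libraries left of control libraries; points are libraries, the bar is the mean ± SD (n = 4 each), and axes start at 0. Skeletal muscle markers are higher and brown adipocyte markers lower in every knockout library than in any control library, and the lymphocyte lists have 1 high control library, 517.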

How the data were processed

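Brown adipose tissue RNA of 4 knockout and 4 control mice was isolated with Trizol and sequenced by Illumina, per the labels' protocols. Per the submitters' processing notes, TopHat version 2 and HOMER were used with mm10. The estimated counts deposited by the authors cover exons of RefSeq gene models on both strands without adjustment, per the file headers, so that overlapping genes cannot be told apart. Their steps are 0.5 and 36.9% are fractional, and rounding made them whole for testing. Exon lengths came from that table. The authors' deposited table of their edgeR comparison gives log2 fold changes and p-values with FDR, per the file headers; its settings are not given in the sources used here.

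The 829 rows without a symbol (0.0608% to 0.0824% of the counts) were left out. Genes kept by filterByExpr with a minimum count of 10 entered edgeR 4.0.16 under R 4.3.3 (TMM factors, quasi-likelihood test, two-sided, Benjamini-Hochberg over 14178 genes, no covariates). The cutoff was 0.4053 CPM and the common biological coefficient of variation 0.181. TMM factors were 1.053 to 1.101 in knockout and 0.898 to 0.961 in control libraries. The SE is the size of the log2 fold change divided by the square root of F. The fit was tested on simulated data. No pair of replicates agreed within sampling noise. Exon overlaps of at least 10% came from GENCODE annotation of the same build.

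Alternatives were other normalization factors, other filters, DESeq2 1.42.0, the sum of all rows of a symbol and each library left out. Leaving out controls 514 and 517 together was chosen after seeing the data, for their marker levels. Members called, the 3 tested members per role with the highest RPKM, and up to 4 called genes per list of partners with the smallest p were to be named. Further genes were named after their values were seen: Ccl5, Ccl8, Ccl9, Ccl17, Ccl22, Ccl24, Ccl25, Ccl27a, Ccl28, the receptors of called ligands, Tnfrsf1b, Tnfrsf8, Tnfrsf18, Tnfrsf23, Tnfsf15 and Adam10. Also named outside that rule were Ccl1, Ccl3, Ccl4, Ccr1, Ccr4, Ccr7, Cxcl2, Cxcl11, Cxcr5, Tnfsf11, Tnfsf13, Tnfsf14, Tnfrsf22 and the members without a count. The members and lists were chosen with earlier results of these data known. Of the tested members, 1 is counted but not reported by name here.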

Additional observations from a re-analysis of the deposited data

Results flagged for a closer look

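In 9 of 130 groups of 4 libraries, 1 library stood far from the other 3, and chance gives about 1 in 20. Among the CC ligands, Ccl2 had 1.247 CPM in control 511 and 0.200 to 0.352 CPM in the other controls. Ccl11 had 21.4 CPM in knockout 515 and 17.4 to 17.9 CPM in the other knockout libraries. Ccl27a was high in 1 library of each group, at 1.81 CPM in knockout 513 beside 0.316 to 0.561 CPM, and at 3.66 CPM in control 511 beside 0.220 to 0.319 CPM. Among the TNF receptors, Tnfrsf22 had 4.33 CPM in knockout 513 and 3.01 to 3.22 CPM in the other knockout libraries. The remaining cases were partners outside the families. Map3k7 had 60.2 CPM in knockout 513 beside 55.4 to 55.9 CPM, and Relt had 3.35 CPM in knockout 515 beside 2.61 to 2.71 CPM. Arrb2 had 10.8 CPM in control 517 beside 9.73 to 9.86 CPM, and Gng2 had 5.39 CPM in control 518 beside 7.48 to 7.84 CPM.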

How the results depend on the processing

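No log2 fold change of a called member changed sign in any alternative. Cx3cl1, Cxcl1, Cxcl10, Ccl12 and Tnfrsf10b stayed called in every alternative in which they were tested. With library sizes alone 4077 genes were called higher and 930 lower, and with upper quartile factors 1625 lower. Library sizes alone called 20 members, all 20 higher, and 37 partner genes, 32 higher and 5 lower. Upper quartile factors and library sizes alone called 0 members lower, the sum of all rows called 2 (Ccr10 and Ccl25), and the fit without controls 514 and 517 called 8 members, all 8 higher and 0 lower. Without those 2 controls Ccl2, Ccl7, Ccr10, Cxcl16, Tnf, Tnfrsf11a and Tnfrsf19 lost their calls, at adjusted p-values of 0.0604 to 0.120 by edgeR, and Ccl22 and Tnfrsf21 gained one. Partner genes called higher were 22 with upper quartile factors and 20 with DESeq2, beside 2915 and 2545 of all genes tested. Leaving out 1 library at a time gave 7 to 14 members called, 7 to 14 higher and 0 to 2 lower, with the fewest without knockout 516. A minimum count of 30 left 33 members, without Ccl7, Ccl12, Cxcl1 and Tnf, and called 9. The cause of these shifts was not tested, except that the stricter filter tests fewer genes. No paired analysis was possible because no replicate number is shared between the groups. Genes near the filter, such as Cxcl1, Tnf and Ccl12, rest on few counts, and a missed threshold at this depth does not show equal levels.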
